A study of Mus musculus with 6 samples.

Results

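The matrix metalloproteinases (MMPs), the ADAM and ADAMTS proteases and the tissue inhibitors of metalloproteinases (TIMPs) were taken from the expression table of sorted mouse thyroid tumor cells by gene symbol, as the genes named Mmp, Timp, Adam or Adamts followed by a number. They were 70 of the 35027 genes listed. Of these, 57 lay above the constant that the authors added to every value in at least 3 of the 6 libraries, and 46 had enough reads to be tested: 17 of 23 MMPs, 3 of 4 TIMPs, 12 of 24 ADAMs and 14 of 19 ADAMTS genes.

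MMPs are zinc enzymes that cut collagens, laminins, proteoglycans and other components of the extracellular matrix. Most are secreted as inactive precursors, whereas the membrane-type MMPs are held at the cell surface. ADAMs are membrane-anchored relatives that release the outer parts of other membrane proteins, such as growth factor precursors, cytokines and Notch receptors, a process called shedding, and some ADAMs have lost the catalytic site. ADAMTS proteases are secreted and cut proteoglycans or trim procollagens. TIMPs bind the active site of MMPs and of some ADAM and ADAMTS enzymes and block it. In tumors these genes are used by the cancer cells as well as by fibroblasts, macrophages and neutrophils in the surrounding tissue.

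The libraries allow thyroid tumors driven by YAP alone to be compared with tumors that also carry mutant Braf. YAP is the transcriptional coactivator that the Hippo pathway restrains and that acts through the TEAD factors. Both genotypes carried a Cre recombinase active in thyroid cells, RIK-rtTA and tetO-YAPS127A, so that doxycycline chow, given from 4 weeks of age, switched on a nuclear form of YAP. BrafYAP mice carried in addition LSL-BrafV600E, a mutant allele expressed from the endogenous Braf gene. The mice were of a mixed background. The fluorescent protein Kate marks cells in which the Cre-dependent RIK allele is active, and about 20000 Kate-positive cells were sorted for each library. There were 3 YAP libraries (replicates 1, 2 and 3) and 3 BrafYAP libraries (replicates 1, 2 and 6). The labels give 3 pooled tumors for each YAP library and 1 tumor for each BrafYAP library, so whatever pooling does to a value cannot be told apart from what the genotype does. The methods of the study instead describe a single tumor per mouse for each replicate, and the labels were followed here.

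The libraries held 26.2 to 36.9 M reads, as estimated from the deposited values. BrafYAP replicate 6 had correlations of 0.733 to 0.879 with the other libraries over all genes tested, against 0.979 between BrafYAP replicates 1 and 2, the closest pair. YAP replicate 1 also had low correlations, at 0.803 to 0.935 with the libraries other than BrafYAP replicate 6. Of the thyroid markers, Pax8 had 5189 to 14663 reads, whereas Tg (thyroglobulin) ranged from 51.8 in BrafYAP replicate 2 to 19640 in BrafYAP replicate 6. Macrophage genes were abundant in every library, as shown by Lyz2 with 44655 to 595612 scaled reads (reads on one scale for all libraries). In libraries of this kind, fewer cells of a type and less RNA per cell cannot be told apart.

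In all, 10 of the MMP genes lie side by side on chromosome 9, and the stretches of DNA just upstream of the 5 with enough reads to be tested are shown because a common regulatory word recurs in 3 of them. The promoters are from RefSeq on GRCm38.p6, written 5′ to 3′ on the strand of the gene and ending 1 base before its RefSeq start, and capitals mark the word TGANTCA, the core site of AP-1, the Jun and Fos dimer that growth factor signalling activates. The windows are chr9:7272364-7272513 for Mmp13, chr9:7344247-7344396 for Mmp12, chr9:7445672-7445821 for Mmp3, chr9:7502192-7502341 for Mmp10 and chr9:7558279-7558428 for Mmp8, all on the plus strand. RefSeq lists more than 1 start for Mmp12, and the one used lies 16 bases past the GENCODE start of the gene.
Mmp13: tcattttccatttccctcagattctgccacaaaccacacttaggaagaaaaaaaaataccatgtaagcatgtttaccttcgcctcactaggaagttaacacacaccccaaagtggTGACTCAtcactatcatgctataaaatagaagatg
Mmp12: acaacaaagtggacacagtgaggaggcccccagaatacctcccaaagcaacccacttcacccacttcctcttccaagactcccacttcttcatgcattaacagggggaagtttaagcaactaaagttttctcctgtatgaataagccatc
Mmp3: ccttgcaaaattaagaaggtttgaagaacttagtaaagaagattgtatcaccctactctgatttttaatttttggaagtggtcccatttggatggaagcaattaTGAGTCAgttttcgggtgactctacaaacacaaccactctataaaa
Mmp10: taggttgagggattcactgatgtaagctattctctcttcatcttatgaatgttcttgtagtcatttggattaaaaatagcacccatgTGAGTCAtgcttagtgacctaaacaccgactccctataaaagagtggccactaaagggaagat
Mmp8: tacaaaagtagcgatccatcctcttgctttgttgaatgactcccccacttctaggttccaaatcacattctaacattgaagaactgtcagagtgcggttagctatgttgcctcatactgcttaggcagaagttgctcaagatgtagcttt
The word stood 35 to 29 bases upstream of the start of Mmp13, 46 to 40 bases upstream in Mmp3 and 63 to 57 bases upstream in Mmp10. It was not present in the 250 bases upstream of Mmp12 or Mmp8. On either strand of the full window, from 250 bases before to 50 bases after a start, it was present in 7.81% of the 32851 promoters of the table and in 11 of the 43 member promoters that the table holds, 5 of them among the 28 of tested members. The Ets word AGGAAG was present in 35.4% of all promoters and in 20 of the 43, and the TEAD word GGAATG in 14.7% of all promoters and in 4 of the 43, of which Timp1 was one.

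For contrast, the 3 genes below lie elsewhere, were among the members with the highest levels or the clearest difference between genotypes, and carried no AP-1 word in the 250 bases upstream. Their windows are chr16:85803114-85803263 on the minus strand for Adamts1, chr6:92943535-92943684 on the minus strand for Adamts9 and chrX:20870016-20870165 on the plus strand for Timp1.
Adamts1: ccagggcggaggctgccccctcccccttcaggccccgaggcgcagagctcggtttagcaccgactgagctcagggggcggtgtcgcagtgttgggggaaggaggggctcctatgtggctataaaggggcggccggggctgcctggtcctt
Adamts9: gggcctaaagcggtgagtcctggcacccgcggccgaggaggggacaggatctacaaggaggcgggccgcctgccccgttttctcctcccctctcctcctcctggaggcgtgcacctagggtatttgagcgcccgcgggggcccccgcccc
Timp1: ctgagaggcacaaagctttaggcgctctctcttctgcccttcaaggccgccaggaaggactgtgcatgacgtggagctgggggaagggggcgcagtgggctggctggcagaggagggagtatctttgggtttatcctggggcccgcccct
A word in a window is a description of its letters and was not tested as a binding site.

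The deposited values were TPM, transcript abundances relative to gene length and to the library total, and they had been divided by the whole length of each gene, introns included, so that long genes have low values. To compare one gene with another, TPM were recomputed with exonic length. On this scale the members formed a steep hierarchy. Timp1, a secreted inhibitor, had an exonic-length TPM of 914 ± 348 in YAP and 1749 ± 1007 in BrafYAP (mean ± SD, n = 3 libraries each). Mmp12, the macrophage elastase, followed with 1147 ± 563 in YAP and 576 ± 451 in BrafYAP, and Timp3, the inhibitor that stays bound to the matrix, with 480.2 ± 94.1 in YAP and 382 ± 258 in BrafYAP. These 3 genes made up 57.7 to 81.6% of the summed TPM of all members in each library. The next were Adam8, a surface protease best known from myeloid cells, at 222 ± 79.4 in YAP and 95.3 ± 65.3 in BrafYAP, and Timp2 at 86.8 ± 17.4 in YAP and 159.6 ± 55.2 in BrafYAP. The ranges of mean ± SD overlapped between Timp1 and Mmp12 in both genotypes and, in BrafYAP, between each next pair down to Timp2, so the order of these neighbours is not fixed. Mmp2, Adamts1 and Mmp9 completed the 8 members with the highest mean, at 80.3, 65.4 and 64.2 TPM over the 6 libraries. The plot of levels by library shows how far single libraries departed from the others.

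**Figure D1:**
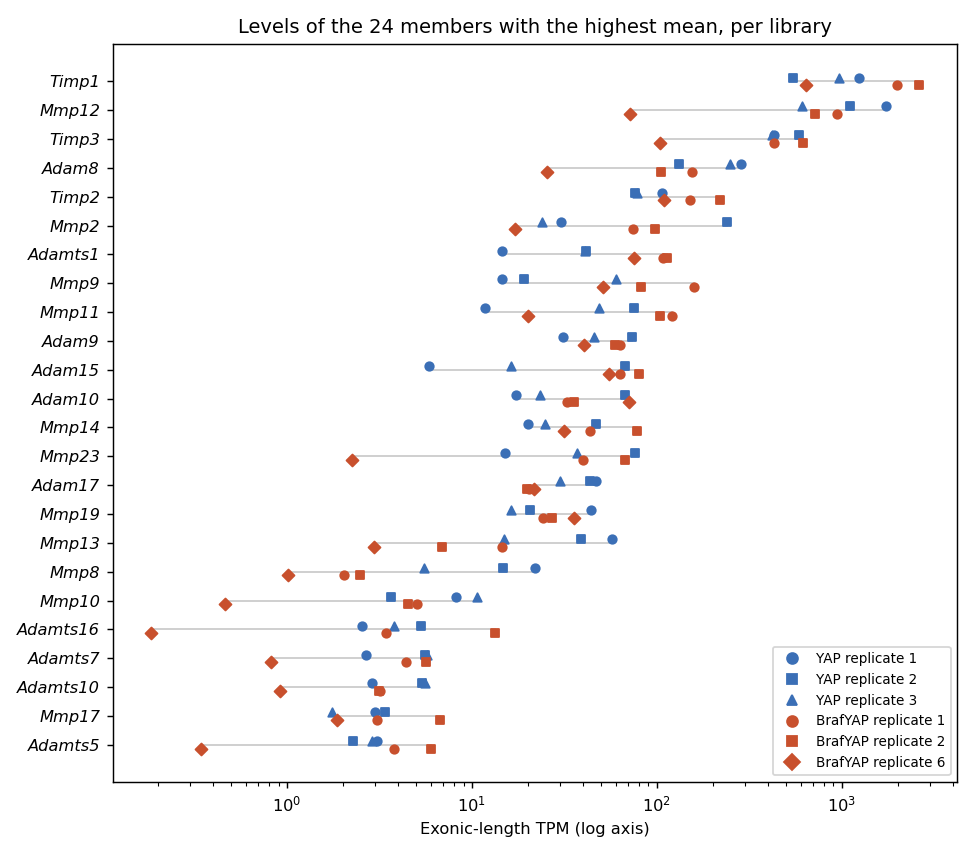
Exonic-length TPM (log axis) of the 24 members with the highest mean, with 1 point per library and the genotype given by colour. Timp1, Mmp12 and Timp3 lie above the other members in most libraries, and BrafYAP replicate 6 (diamonds) lies lowest for Mmp12, Timp3, Adam8 and Mmp23.

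The makeup of the members' RNA differed between libraries. Mmp12 took 41.6, 33.2 and 22% of their summed TPM in YAP replicates 1, 2 and 3, and 21, 14 and 5.04% in BrafYAP replicates 1, 2 and 6. Timp1 took 29.6, 16.4 and 35% in the YAP libraries and 44.5, 51.2 and 45.4% in the BrafYAP libraries. The 4 TIMPs together took 36.4 to 53.0% in YAP and 57.5 to 67.5% in BrafYAP, with no overlap between the genotypes. These are shares of a whole, so a lower share of Mmp12 by itself raises the share of the TIMPs.

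At the other end, 6 members were at the added constant in all libraries: Adam26a, Adam29, Adam30, Mmp1a, Mmp27 and Timp4. Timp4 is the inhibitor known mainly from heart and brain, and several of the ADAMs are known from testis. A further 7 members were above the constant in only 1 library each. Of the reproductive-tract ADAMs, 1 of 12 had enough reads to be tested.

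To compare the genotypes, the length division was undone and each gene was given in reads on the authors' scaling between libraries, called scaled reads here. Genes with a mean of at least 10 were fitted with limma on log2(scaled reads + 1). At an adjusted p under 0.05, 0 of 16832 genes passed (0%), and accordingly 0 of the 46 members. The lowest adjusted p of a member was 0.0843, for Adamts9. At an unadjusted p under 0.05 there were 11 members, which is 23.9%, beside 20.2% of all genes tested, and voom, the other test run, likewise gave 0 genes past the adjusted threshold. The 11 comprised 5 members higher in BrafYAP (all genes, 9.68%) and 6 lower (all genes, 10.5%). The 3 libraries of one genotype lay entirely outside the range of the other for 10 members, 4 higher and 6 lower in BrafYAP. This is 21.7%, beside 28.7% of all genes tested. Of the higher members, Mmp3 and Adamts3 averaged only 1.52 and 7.92 scaled reads in YAP and reached the minimum through their BrafYAP libraries. With a minimum mean of 50, the members higher in BrafYAP numbered 3 at an unadjusted p under 0.05 and 2 without overlap. Those lower stayed at 6 in each count. Leaving out BrafYAP replicate 6 raised the count of all genes past the adjusted threshold to 142 and leaving out YAP replicate 2 to 3, with 0 members among them, and the members higher at an unadjusted p under 0.05 numbered 2 without YAP replicate 1 or YAP replicate 3. Weighting each library by its fit (array weights, lowest for BrafYAP replicate 6) was the one alternative on this scale in which members passed. With these weights 14 of the 46 members passed, beside 4653 of the 16832 genes tested. As a list the members differed between genotypes about as often as other genes did. Their median log2 fold change, BrafYAP minus YAP, was -0.35, beside -0.12 over all genes, with 20 members above 0 and 26 below. Of all 16832 genes tested, 7465 were above 0 and 9367 below. In a fit to the deposited TPM themselves, on log2(value + 1) with a minimum mean of 1, 16 members were tested, and 0 of them passed the adjusted threshold beside 0.246% of all genes, while 4 had an unadjusted p under 0.05 beside 19.9%. Rescaling the libraries by median ratios brought the median of all genes to 0.00.

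**Figure D2:**
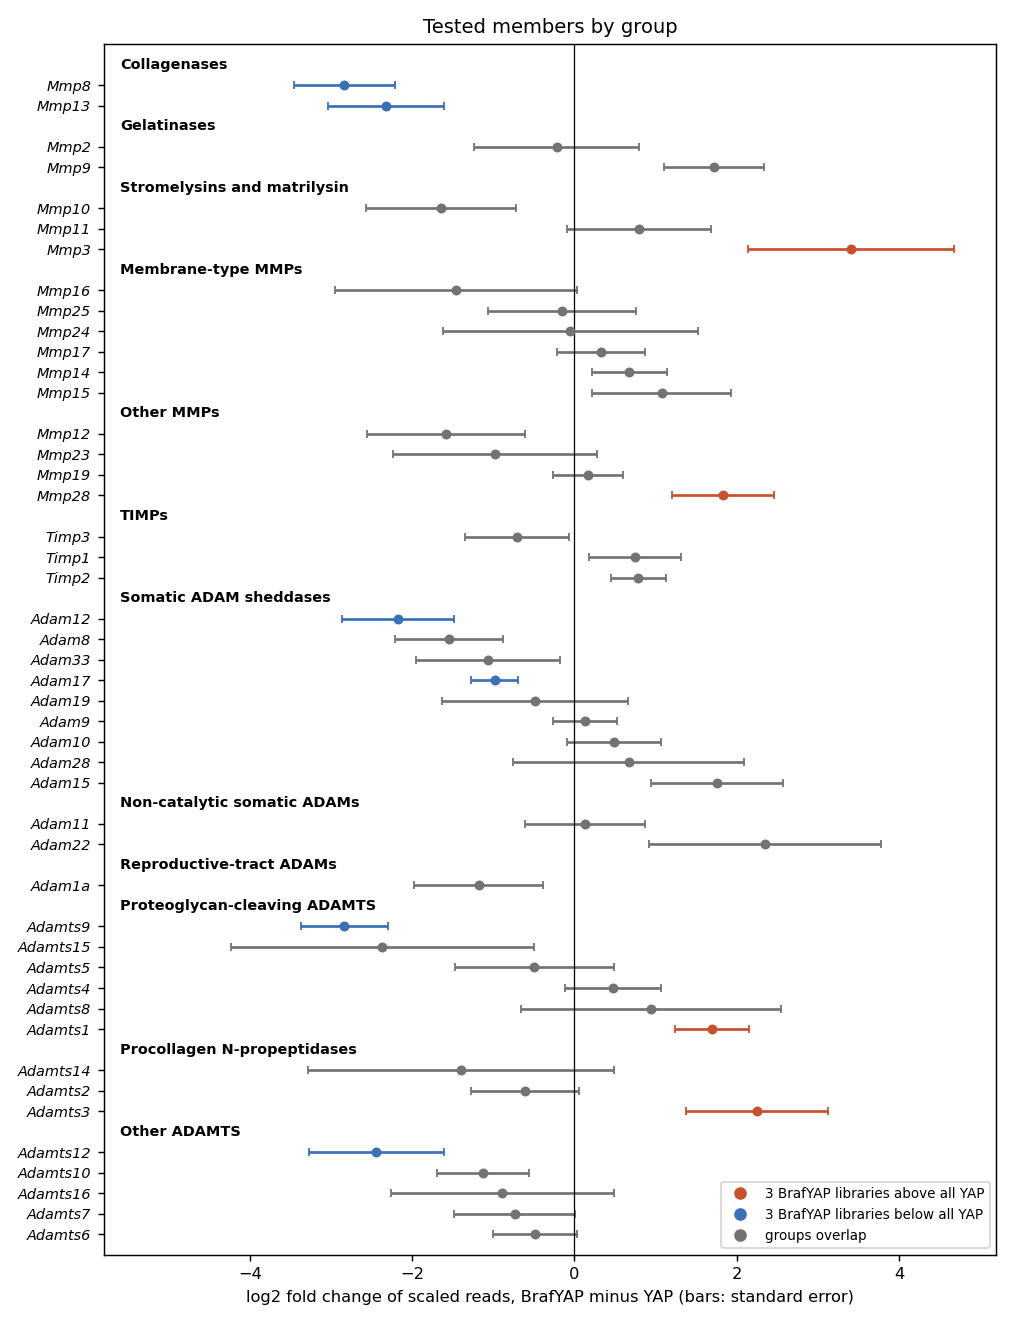
Log2 fold change (BrafYAP minus YAP, scaled reads) of the 46 tested members by group, with bars for the standard error of the limma fit. Colour marks the 10 members whose 3 libraries of one genotype lie all above or all below those of the other, 4 higher and 6 lower in BrafYAP.

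Collagenases open the triple helix of fibrillar collagen. Both tested members were lower in every BrafYAP library than in any YAP library, as were 17.1% of all genes tested. The other 2, Mmp1a and Mmp1b, had next to no reads. Mmp8, the collagenase first known from neutrophils, had 615, 428 and 147 scaled reads in YAP replicates 1, 2 and 3 and 55.4, 65.9 and 27.5 in BrafYAP replicates 1, 2 and 6. The YAP libraries ranged widely, and the lowest of them still had more than the highest BrafYAP library. The level was 7.14-fold lower in BrafYAP, with a log2 fold change of -2.84 ± 0.62 (SE) and a limma adjusted p of 0.0976. Mmp13, collagenase-3, had 1788, 1252 and 439 scaled reads in YAP replicates 1, 2 and 3 and 434, 201 and 88.8 in BrafYAP replicates 1, 2 and 6. YAP replicate 3 and BrafYAP replicate 1 nearly met. Its log2 fold change was -2.32 ± 0.71, with a limma adjusted p of 0.149.

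The gelatinases, which cut denatured collagen and the collagen of basement membranes, differed from each other. Mmp9 (gelatinase B) had 597, 812 and 2351 scaled reads in YAP replicates 1, 2 and 3 and 6266, 3192 and 2036 in BrafYAP replicates 1, 2 and 6. It was higher in BrafYAP on average, but YAP replicate 3 exceeded BrafYAP replicate 6. Its log2 fold change was 1.72 ± 0.61 and the limma adjusted p 0.188. Mmp2 (gelatinase A) had 1191, 9685 and 893 scaled reads in YAP replicates 1, 2 and 3 and 2795, 3594 and 647 in BrafYAP replicates 1, 2 and 6. A single library, YAP replicate 2, held far more than the rest, and the log2 fold change of -0.22 ± 1.01 turned to 0.86 without it and to 0.54 without BrafYAP replicate 6.

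Of the stromelysins and matrilysin, 3 of 4 were tested. Mmp3 (stromelysin-1), which cuts proteoglycans and fibronectin and activates other MMPs, had few reads in YAP, at 1.03, 2.48 and 1.03 scaled reads in YAP replicates 1, 2 and 3 and 6.72, 11.8 and 171 in BrafYAP replicates 1, 2 and 6. All 3 BrafYAP libraries lay above the YAP libraries, but BrafYAP replicate 6 held nearly all of the reads. Summed over libraries there were 4 estimated reads in YAP against 214 in BrafYAP, of which 193 were in BrafYAP replicate 6. The ratio per read sequenced was 45.1 (exact 95% interval 17.4 to 167) and is set mainly by that library. The interval covers counting error only and leaves out the spread between libraries, so it is not an interval for the genotypes. The log2 fold change was 3.40 ± 1.27 with a limma adjusted p of 0.203, and without BrafYAP replicate 6 the gene had too few reads to be tested. Mmp10 (stromelysin-2) was at 164, 75.8 and 201 scaled reads in the YAP libraries and 97.4, 84.8 and 8.97 in the BrafYAP libraries, with overlapping groups and a log2 fold change of -1.64 ± 0.92. Mmp11 (stromelysin-3), which is activated inside the cell by furin, was the most abundant of the group by exonic-length TPM, ranged from 380.4 to 3783 scaled reads and also overlapped. Mmp7 (matrilysin) was below the minimum.

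**Figure D3:**
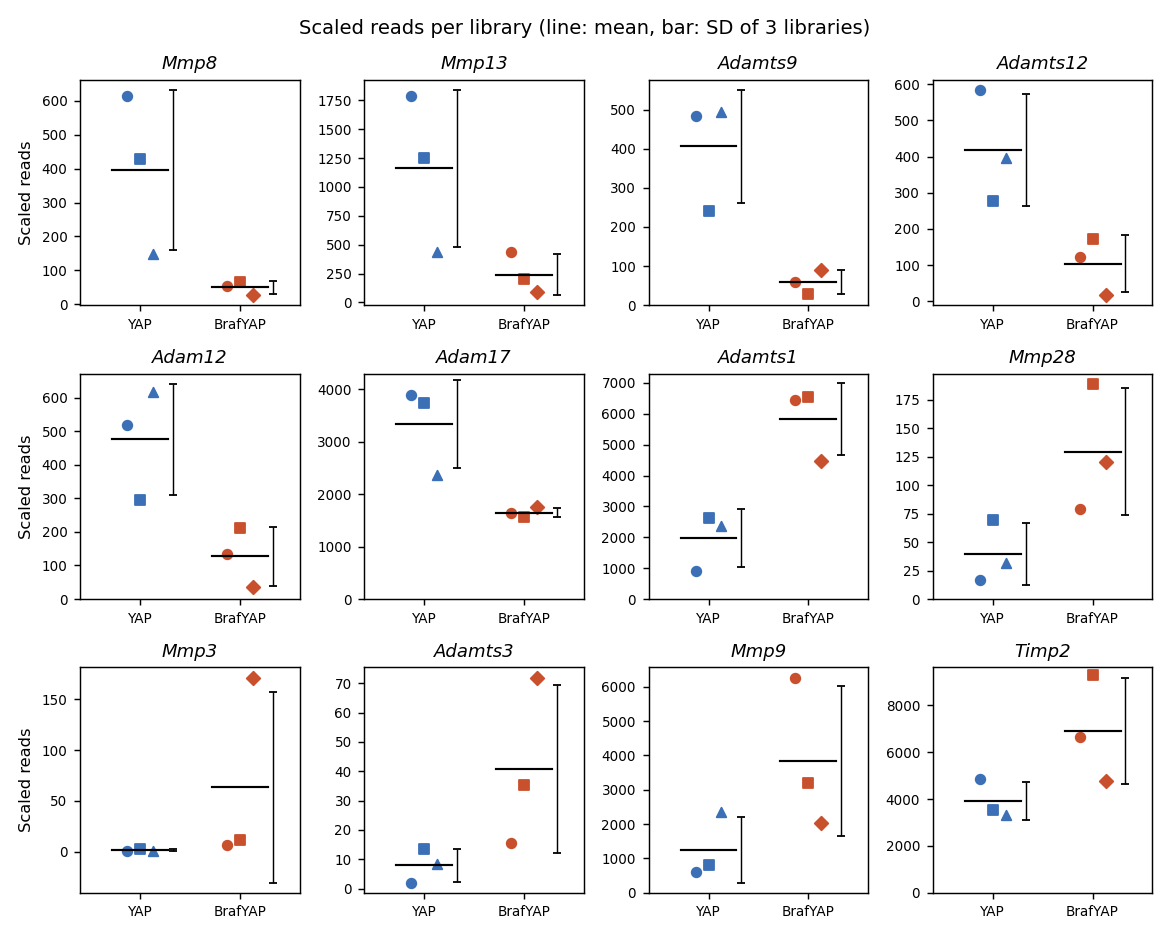
Scaled reads (linear axes, 1 panel per gene) in each library, with horizontal lines for the mean and bars for the SD of 3 libraries. In the first 10 panels, from Mmp8 to Adamts3, the libraries of the 2 genotypes do not overlap, whereas in those of Mmp9 and Timp2 they do. The bars for Mmp3 show how far 1 BrafYAP library sets its mean.

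All 6 membrane-type MMPs were tested, and none had groups that did not overlap. Mmp14 (MT1-MMP), the surface enzyme that activates Mmp2 together with Timp2, had 1396, 3371 and 1621 scaled reads in YAP replicates 1, 2 and 3 and 2889, 5097 and 2122 in BrafYAP replicates 1, 2 and 6. For Mmp14 the log2 fold change was 0.68 ± 0.46 (limma adjusted p 0.439). Fold changes of the other 5 (Mmp15, Mmp16, Mmp17, Mmp24 and Mmp25) ran from -1.46 to 1.07.

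Of the remaining MMPs, Mmp12 was the most abundant and Mmp28 the one whose groups did not overlap. Mmp12, which cuts elastin and is a classical product of macrophages, had 145751, 95866 and 48495 scaled reads in YAP replicates 1, 2 and 3 and 76406, 56652 and 5828 in BrafYAP replicates 1, 2 and 6. BrafYAP replicates 1 and 2 lay within the YAP range and BrafYAP replicate 6 lay far below it. Without BrafYAP replicate 6, its log2 fold change of -1.58 ± 0.97 (limma adjusted p 0.39) was -0.42. Its gene overlaps the end of Mmp1b, which had next to no reads. Mmp28 (epilysin), an MMP known from epithelia, had 16.4, 69.7 and 31.9 scaled reads in YAP replicates 1, 2 and 3 and 78.7, 189 and 121 in BrafYAP replicates 1, 2 and 6. Every BrafYAP library exceeded every YAP library, BrafYAP replicate 1 only narrowly. For Mmp28 the log2 fold change was 1.83 ± 0.63 with a limma adjusted p of 0.175, from 104 against 448 estimated reads in all. Mmp19 and Mmp23 had log2 fold changes of 0.17 ± 0.43 and -0.98 ± 1.25, with overlapping groups.

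The cluster on chromosome 9 held members with differences of both signs. It spans 427.1 kb (chr9:7272514-7699585, mm10), contains 10 members and 0 other protein-coding genes, and ends 232.4 kb from the endogenous Yap1 gene. Of its 5 tested genes, Mmp13, Mmp12, Mmp10 and Mmp8 were lower in BrafYAP on average, and Mmp3, which lies between Mmp12 and Mmp10, was higher. Mmp13, Mmp10 and Mmp3 carried the AP-1 word shown above close to their start, the first 2 with a fold change below 0 and Mmp3 above 0. Mmp8 and Mmp12, with the same sign as Mmp13, did not carry it. Whether the word bears on these differences was not tested.

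**Figure D4:**
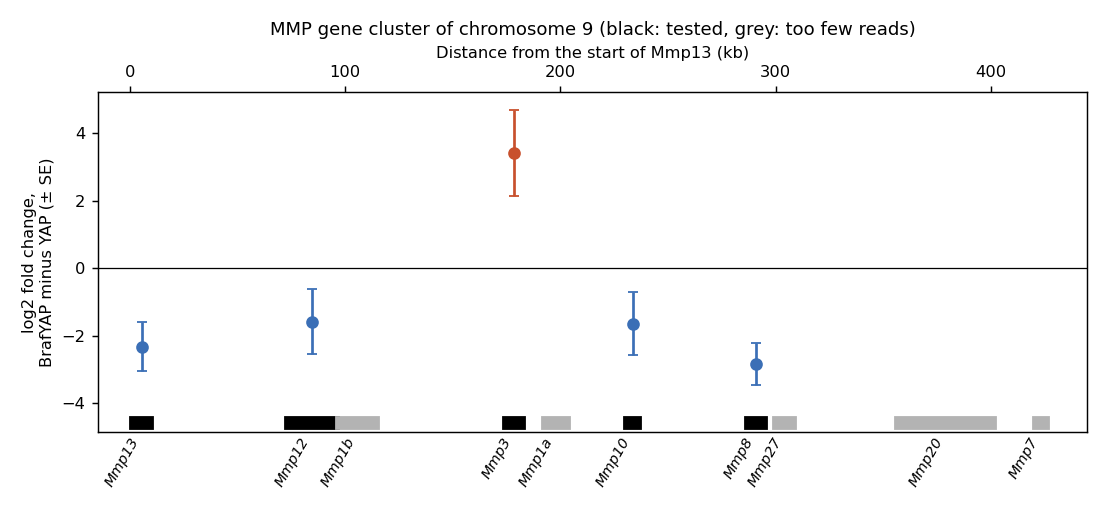
The MMP cluster of chromosome 9 drawn to scale, with the distance from the start of Mmp13 in kb on the upper axis, and above it the log2 fold change of each tested gene (BrafYAP minus YAP, scaled reads, bars for the SE). Black boxes are tested genes, 4 with a fold change below 0 and Mmp3 above 0, and grey boxes are genes with too few reads.

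Timp1, Timp2 and Timp3 were among the 5 most abundant members, and none had groups that did not overlap. Timp1, which growth factors and cytokines induce, had 12721, 5783 and 9473 scaled reads in YAP replicates 1, 2 and 3 and 19836, 25432 and 6445 in BrafYAP replicates 1, 2 and 6. BrafYAP replicates 1 and 2 were above all YAP libraries, whereas BrafYAP replicate 6 was among the lowest. The log2 fold change was 0.74 ± 0.57, with a limma adjusted p of 0.484, and was 1.34 without BrafYAP replicate 6 but 0.35 if BrafYAP replicate 2 was left out. Timp2, which inhibits MMPs and also assists the activation of Mmp2, had 4844, 3556 and 3336 scaled reads in YAP replicates 1, 2 and 3 and 6637, 9315 and 4773 in BrafYAP replicates 1, 2 and 6. The groups met at YAP replicate 1 and BrafYAP replicate 6, and the log2 fold change was 0.79 ± 0.34 (limma adjusted p 0.247). Timp3, the TIMP that also blocks Adam17 and several ADAMTS enzymes, had 40894, 57630 and 37747 scaled reads in YAP replicates 1, 2 and 3 and 39248, 54682 and 9521 in BrafYAP replicates 1, 2 and 6. It was even across libraries except BrafYAP replicate 6, and its log2 fold change of -0.71 ± 0.64 was 0.05 without that library. The genes of Timp1, Timp2 and Timp3 overlap Syn1, Cep295nl and Syn3, and no strand is stated for the counting, so reads of each pair cannot be told apart. The same holds for other members whose genes overlap a neighbour.

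Among the 9 catalytic ADAMs of somatic tissues, all tested, 2 were lower in every BrafYAP library and none was higher, which is 22.2% beside the 28.7% of all genes without overlap. Adam17, the enzyme that releases tumor necrosis factor and most ligands of the epidermal growth factor receptor, had 3879, 3742 and 2369 scaled reads in YAP replicates 1, 2 and 3 and 1638, 1560 and 1744 in BrafYAP replicates 1, 2 and 6. The BrafYAP libraries were close to each other and the YAP libraries all above them. Its level was 1.98-fold lower in BrafYAP, with a log2 fold change of -0.98 ± 0.29 and a limma adjusted p of 0.143, and it overlaps Iah1. Adam12, a protease of mesenchymal cells and of many tumors, had 519, 294 and 617 scaled reads in YAP replicates 1, 2 and 3 and 135, 212 and 34.6 in BrafYAP replicates 1, 2 and 6. BrafYAP replicate 6 was lowest, and the log2 fold change of -2.17 ± 0.69 (limma adjusted p 0.156) was -1.42 without it.

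Adam8 was the most abundant ADAM by exonic-length TPM, with 15359, 7379 and 12664 scaled reads in YAP replicates 1, 2 and 3 and 8061, 5357 and 1337 in BrafYAP replicates 1, 2 and 6. BrafYAP replicate 1 exceeded YAP replicate 2, so the groups overlapped. The log2 fold change was -1.54 ± 0.67 (limma adjusted p 0.253) and was -0.78 without BrafYAP replicate 6. Adam10, the sheddase of Notch and of E-cadherin, had 993, 3949 and 1262 scaled reads in YAP replicates 1, 2 and 3 and 1804, 1926 and 3902 in BrafYAP replicates 1, 2 and 6. YAP replicate 2 and BrafYAP replicate 6 shared the highest level and the groups overlapped (log2 fold change 0.48 ± 0.58, from 0.095 without YAP replicate 1 to 1.09 without YAP replicate 2). Adam15, which acts in cell adhesion, had 419, 4953 and 1098 scaled reads in YAP replicates 1, 2 and 3 and 4353, 5360 and 3797 in BrafYAP replicates 1, 2 and 6. Only YAP replicate 2 reached the BrafYAP range, and the log2 fold change was 1.76 ± 0.81 with a limma adjusted p of 0.275. Adam9, Adam19, Adam28 and Adam33 had log2 fold changes of -1.07 to 0.67, with overlapping groups. Of the ADAMs that lack a catalytic site, Adam11 and Adam22 were tested. Their groups overlapped.

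Of the proteoglycan-cleaving ADAMTS genes, which cut aggrecan and versican, 6 were tested. They held 1 member higher and 1 lower in every BrafYAP library, beside 11.7% of all genes higher and 17.1% lower. Adamts1 had 891, 2628 and 2372 scaled reads in YAP replicates 1, 2 and 3 and 6444, 6559 and 4474 in BrafYAP replicates 1, 2 and 6. The lowest BrafYAP library was well above the highest YAP library. Its level was 3.24-fold higher in BrafYAP, with a log2 fold change of 1.70 ± 0.46 and a limma adjusted p of 0.122. Adamts9 had 484, 239.6 and 494 scaled reads in YAP replicates 1, 2 and 3 and 59.6, 27.7 and 90.4 in BrafYAP replicates 1, 2 and 6. No BrafYAP library came near the lowest YAP library. The level was 7.14-fold lower in BrafYAP, with a log2 fold change of -2.84 ± 0.54 and a limma adjusted p of 0.0843. By exonic-length TPM the 2 genes were of unlike abundance, at 32.1 ± 15.3 in YAP and 98.7 ± 20.8 in BrafYAP for Adamts1 and 2.36 ± 0.9 in YAP and 0.351 ± 0.182 in BrafYAP for Adamts9.

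Adamts4 and Adamts5, the main aggrecanases of cartilage, had overlapping groups. Adamts5, which lies 53.1 kb from Adamts1 on chromosome 16, had 387, 296 and 343 scaled reads in YAP replicates 1, 2 and 3 and 461, 714 and 41.7 in BrafYAP replicates 1, 2 and 6. BrafYAP replicates 1 and 2 were above all YAP libraries and BrafYAP replicate 6 far below, and the log2 fold change of -0.50 ± 0.98 was 0.75 without that library. Adamts4 had 84.3, 199 and 107 scaled reads in the YAP libraries and 149.6, 91.1 and 355 in the BrafYAP libraries. Its log2 fold change of 0.47 ± 0.59 was -0.06 without BrafYAP replicate 6. Adamts8 and Adamts15, 20.1 kb apart on chromosome 9, had at most 88.1 scaled reads in any library.

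Of the 3 procollagen N-propeptidases, which trim fibrillar procollagens, Adamts3 was higher in BrafYAP. It had 2.06, 13.5 and 8.24 scaled reads in YAP replicates 1, 2 and 3 and 15.5, 35.3 and 71.9 in BrafYAP replicates 1, 2 and 6. The lowest BrafYAP library was just above the highest YAP library. There were 21 estimated reads in YAP against 140 in BrafYAP, and the log2 fold change was 2.25 ± 0.88 (limma adjusted p 0.217). Adamts2 and Adamts14 had overlapping groups. All 5 tested genes among the other ADAMTS had log2 fold changes below 0, as did 9367 of all 16832 genes tested. For Adamts12, a protease of cartilage oligomeric matrix protein, the groups did not overlap. Adamts12 had 584, 276 and 397 scaled reads in YAP replicates 1, 2 and 3 and 123, 171 and 17.8 in BrafYAP replicates 1, 2 and 6. BrafYAP replicate 6 was far below the rest, and the log2 fold change of -2.44 ± 0.83 (limma adjusted p 0.174) was -1.46 without it. Adamts10, Adamts16, Adamts7 and Adamts6 had values of -1.13, -0.89, -0.73 and -0.49.

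Genes that process, carry or restrain these proteases were followed as a list of 23, of which 22 were tested. At an unadjusted p under 0.05, 3 regulators were higher and 1 lower in BrafYAP, and 6 had groups without overlap (3 in each direction). These shares, 18.2 and 27.3% of the 22, were below the 20.2 and 28.7% of all genes. None passed the adjusted threshold, and their median log2 fold change was 0.48 beside -0.12 over all genes. Bsg (basigin, also known as EMMPRIN), a surface protein that induces MMPs in neighbouring cells, had 4324, 50721 and 25021 scaled reads in YAP replicates 1, 2 and 3 and 84635, 56833 and 85129 in BrafYAP replicates 1, 2 and 6. YAP replicate 1 was low and the BrafYAP libraries were the 3 highest (log2 fold change 2.07 ± 0.84, limma adjusted p 0.227). Pcsk6, a convertase that removes the propeptides of precursor proteins, had 31.9, 35.5 and 72.1 scaled reads in the YAP libraries and 159.5, 195 and 101 in the BrafYAP libraries (log2 fold change 1.73 ± 0.49, limma adjusted p 0.13). Papln (papilin), a relative of ADAMTS without a protease domain, had 0, 13.5 and 4.12 scaled reads in the YAP libraries and 57.6, 27.5 and 15.1 in the BrafYAP libraries. Adamtsl3, another such relative, was the one lower at an unadjusted p under 0.05, at 94.6, 121 and 45.3 scaled reads in the YAP libraries and 16.6, 11 and 24 in the BrafYAP libraries (log2 fold change -2.23 ± 0.57, limma adjusted p 0.115). Pcsk7, a convertase like Pcsk6, had 2075, 2159 and 1534 scaled reads in the YAP libraries and 1326, 1234 and 1176 in the BrafYAP libraries (log2 fold change -0.61 ± 0.27, limma adjusted p 0.256), and Adamtsl4 had 2651, 3020 and 3218 scaled reads in the YAP libraries and 1939, 2630 and 290.4 in the BrafYAP libraries (log2 fold change -1.37 ± 0.78, limma adjusted p 0.358), both lower without overlap. The partners of Adam17, Rhbdf1, Rhbdf2 and Frmd8, had log2 fold changes of 0.95, 0.37 and 0.57, and the groups overlapped for each. Of the tetraspanins that escort Adam10, Tspan14 was the most even, with 3647 to 4316 scaled reads. Reck, a membrane-anchored inhibitor of MMPs, had a log2 fold change of -0.10 ± 0.45.

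Macrophage markers differed in the same direction as Mmp12, Mmp13, Mmp8 and Adam8. Other members did not, among them Mmp9, Timp2, Mmp14 and Mmp19 with log2 fold changes of 1.72, 0.79, 0.68 and 0.17. Of all tested members, 26 had a fold change below 0 and 20 above. All 10 macrophage markers (Adgre1, Csf1r, Cd68, Lyz2, Mrc1, C1qa, C1qb, C1qc, Fcgr1 and Cx3cr1) were lower in BrafYAP at an unadjusted p under 0.05, as were 10.5% of all genes tested. For 9 of them the groups did not overlap, beside 17.1% of all genes lower without overlap. None of the markers passed the adjusted threshold (lowest limma adjusted p 0.0873), and their median log2 fold change was -2.44. Their summed scaled reads were 736553, 634095 and 219658 in the YAP libraries and 214745, 152554 and 57507 in the BrafYAP libraries. None was at 0 in any library. In both genotypes the library with the lowest sum, YAP replicate 3 and BrafYAP replicate 6, also had the least Mmp12, Mmp13 and Mmp8, as the plot of macrophage markers shows. Adam8 was an exception in YAP, where replicate 2 had the least. BrafYAP replicate 6 had the lowest level of 20 of the 46 tested members (43.5%), beside 31% of all genes tested. YAP replicate 1, which had the highest marker sum, had the lowest level of 14 members (30.4%), beside 26.7% of all genes. The part of macrophage RNA in the values of these proteases was not tested.

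**Figure D5:**
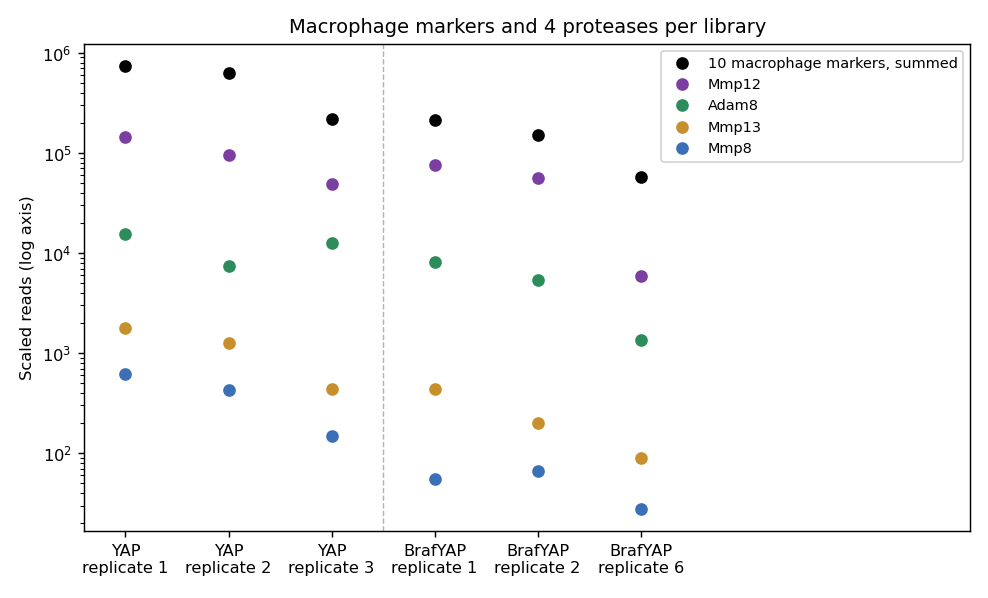
Scaled reads (log axis) of Mmp12, Adam8, Mmp13 and Mmp8 beside the sum of 10 macrophage markers, with 1 point per library and gene. Within each genotype the library with the lowest marker sum has the lowest Mmp12, Mmp13 and Mmp8, and the marker sum is lower in all BrafYAP libraries (57507 to 214745) than in the YAP libraries (219658 to 736553).

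Of the 7 neutrophil markers, beside which Mmp8 and Mmp9 are commonly read, Ly6g was listed at 0 in all libraries and S100a9 had at most 14.2 scaled reads. The sum of the list was 203.5 to 616 in YAP and 72.8 to 153 in BrafYAP and came in YAP mostly from Csf3r, which macrophages can also express. Csf3r was the only tested neutrophil marker lower in BrafYAP (log2 fold change -3.81 ± 1.00). S100a8 and Mpo had log2 fold changes of 1.15 ± 0.67 and 0.13 ± 0.47, with overlapping groups. Fibroblast markers summed to 14296 to 28611 in YAP and 11590 to 28245 in BrafYAP, with Dcn and Lum higher and Col1a1 lower in every BrafYAP library. Adam12, Adamts12 and Mmp2 are genes that fibroblasts also use, and the part of fibroblast RNA in their values was not tested. The 5 epithelial markers (Epcam, Krt8, Krt18, Krt19 and Cdh1) summed to 138594 to 399857 in YAP and 170056 to 382355 in BrafYAP, and of these Epcam was higher in every BrafYAP library (log2 fold change 2.10 ± 0.67, limma adjusted p 0.159). Endothelial markers summed to 594, 3477 and 307 scaled reads in YAP replicates 1, 2 and 3 and 258, 161 and 3266 in BrafYAP replicates 1, 2 and 6. Kdr gave most of the sum in YAP replicate 2, at 3148. Pecam1, Cdh5, Tie1, Tek and Egfl7 were each highest in BrafYAP replicate 6. T cell markers summed to 299 to 522 in YAP and 300 to 561 in BrafYAP.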

How the data were processed

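The series holds 6 RNA-seq libraries, grouped by their titles. Per the labels and the study's methods, amplified RNA (SMART-Seq, 12 cycles, then 8 PCR cycles) was aligned by the authors to mm10 with STAR 2.6.1d and assigned to Ensembl release 95 genes by Partek's E/M method, and the authors deposited 1 table of TPM with 0.0001 added. Low values were whole multiples of one step per library (within 0.05, under 200 reads) for 70.9 to 75.5% of values with the genomic span as length and for 23.0 to 26.8% with the exonic length, so span had been used. Estimated reads are (value - 0.0001) × span / step, from GENCODE M21, and scaled reads keep the authors' scaling between libraries. Without molecular identifiers, intervals on reads cover counting error only.

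BrafYAP was compared with YAP in limma 3.58.1 (R 4.3.3, lmFit, eBayes with trend, two-sided, Benjamini-Hochberg) on log2(scaled reads + 1), with a minimum mean of 10 per gene, and on log2(TPM + 1), with a minimum mean of 1. The fit was run on simulated data with independent noise, set to a fraction of the spread seen here, and no outlying library. That setting is easier than these data, so it does not show how the fit performs on them. The p-values measure the spread between libraries. Named in full were members with non-overlapping groups and an unadjusted p under 0.05, the TIMPs, the 8 highest by exonic-length TPM and 10 well-known members. Members that the text names beyond these complete a group or were chosen after their values were seen. The members, the regulator and marker lists and the alternatives were chosen with earlier results of these data known. Replicate numbers 1 and 2 are shared between genotypes. The lowest tested means were 11.1 (Adam1a) and 15.6 (Mmp16) scaled reads, and the highest not tested 8.78 (Adam5) and 8.23 (Adam23).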

Additional observations from a re-analysis of the deposited data

How the results depend on the processing

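The 10 members with non-overlapping groups, and Timp1, Timp2, Adam8, Mmp9 and Mmp14, kept the sign of their fold change under every alternative in which they could be tested. No member passed the adjusted threshold in any alternative on scaled reads or exonic-length TPM except limma array weights. Those weights ran from 0.221 for BrafYAP replicate 6 to 4.81 for YAP replicate 3. They gave 4653 of the 16832 genes past the threshold, and 14 of the 46 members. At an unadjusted p under 0.05, 13 members were higher and 10 lower in BrafYAP, beside 6916 genes in either direction. The log2 fold changes were 0.066 for Timp3, 0.12 for Mmp12, 1.33 for Mmp2 and 0.50 for Adamts5. Each of these was below 0 without weights. The count of all genes past the threshold, 0 on scaled reads, was 49 with a pseudocount of 5, 62 after quantile normalization, 20 without the trend, 63 on exonic-length TPM and 18 on the deposited TPM. It ranged from 0 to 142 with 1 library left out (3 without YAP replicate 2 and 142 without BrafYAP replicate 6).

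Members higher in BrafYAP at an unadjusted p under 0.05 numbered 5, and 3 with a minimum mean of 50, 2 on deposited TPM (where fewer members were tested) and 2 to 7 with 1 library left out (2 without YAP replicate 1 or YAP replicate 3, 3 without BrafYAP replicate 2). Members lower numbered 6, and 2 on deposited TPM and 5 to 8 with 1 library left out. Members with no overlap, 4 higher and 6 lower, numbered 2 higher with a minimum mean of 50, 1 higher and 2 lower on deposited TPM, and 4 to 9 higher with 1 library left out (7 without YAP replicate 2 and 9 without BrafYAP replicate 6). Genes past the threshold on deposited TPM, 18, numbered 1 with a pseudocount of 0.1, 3 with a minimum mean of 10 and 0 without a filter, and ranged from 0 to 465 with 1 library left out, the 465 without YAP replicate 2, including 1 member, Adam15, and 0 without YAP replicate 1 or 3 or BrafYAP replicate 1 or 2. The cause of these shifts was not tested.

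Leaving out 1 library moved the log2 fold change of Timp3 between -1.21 and 0.053, of Mmp2 between -0.86 and 0.86 (0.54 without BrafYAP replicate 6), of Adamts4 between -0.060 and 0.92 and of Adamts5 between -1.28 and 0.75. With a replicate block, 0 genes passed the threshold on either scale, 5 members were higher and 6 lower at an unadjusted p under 0.05, and values turned to -0.088 for Adam10, -0.15 for Adamts4 and 0.76 for Adamts5. Deviations of same-numbered libraries from their group means correlated at -0.03 and 0.05. Pairs with unlike numbers ran from -0.06 to 0.07, so these values do not set same-numbered pairs apart. Whether same-numbered libraries share more than a number cannot be decided from them. Members under a mean of 10 scaled reads, 24 of 70, could not be compared at this depth.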

Other observations

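BrafYAP replicate 6 carried a distinct set of members at their highest and lowest levels, chosen here after the values were seen. It had the lowest scaled reads of the 6 libraries for 20 of 46 tested members (43.5%) and the highest for 8 (17.4%), beside 31 and 23.8% of all genes tested. Among the high members, Adam22, a neuronal receptor without a catalytic site, had 399 scaled reads there and at most 26.7 elsewhere. Adam19 had 208 and at most 59.9 elsewhere, Adam28 had 124 and at most 44.2, and Mmp15, a membrane-type MMP, had 336 and at most 86.5. Endothelial markers summed to 3266 scaled reads in the same library, and the part of endothelial RNA in these members was not tested. Among the low members, Mmp23 had 59.5 scaled reads there and at least 409 elsewhere, Adamts16 had 14.2 and at least 201 elsewhere, and Adamts14, a procollagen N-propeptidase, was listed at 0 there and at 33 or more elsewhere. YAP replicate 1 had the lowest scaled reads for 14 of the 46 members (30.4%), beside 26.7% of all genes.

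Some regulators followed the same library. Tspan15, a tetraspanin that escorts Adam10, had 2611 scaled reads in BrafYAP replicate 6 and at most 594 elsewhere, and Adamtsl2 had 499 and at most 18.3 elsewhere. A2m, a broad protease inhibitor of plasma, had 582 in that library, 132 in BrafYAP replicate 1 and at most 12.3 elsewhere.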
